A study of Homo sapiens with 6 samples.

Results

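Reads of 8 mature microRNAs (miRNAs) from imprinted loci outside 14q32 were followed in the established human breast adenocarcinoma line KPL4: both arms of miR-335 (MEST locus), miR-483 (IGF2 locus), miR-675 (H19 locus) and miR-296 (GNAS locus). They were chosen by name among the 2656 mature miRNAs listed, and all 8 had counts. Every sample was a knockout of estrogen receptor β (ERβ). In one group 3 libraries came from these ERβ knockout cells, called S1, S2 and 3. In the other, 3 libraries came from knockout cells that also carried exogenous ERβ, called 1, 2 and 3; no source used here gives the promoter of the transgene or the number of clones. Whether replicates were separate cultures is not stated, so each p-value speaks to the spread among these libraries, which may be technical. No vector control is among the samples, so an effect of ERβ and any other difference between the cells of the 2 groups cannot be told apart.

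In genomic imprinting a gene is expressed mainly from the chromosome inherited from a given parent, set by methylation of control regions in the germ line. MEST and IGF2 are expressed from the paternal chromosome and H19 from the maternal one, while GNAS gives transcripts of either parental origin. A miRNA hairpin inside such a transcript is cut into a 5p and a 3p arm, and the arm kept in the silencing complex recognises targets mainly through its seed, bases 2 to 8. The comparison asks whether the levels of miRNAs of these loci differed together between the groups, beyond the large 14q32 cluster. Counts of a mature miRNA do not tell the parental chromosomes apart, so imprinting itself was not measured.

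The mature sequences show which arms were counted and that no seed is shared among the 6 members with a sequence. They are from RefSeq (GRCh38.p14), which matched 6 of the 8 names, and capitals mark the seed.
miR-335-5p: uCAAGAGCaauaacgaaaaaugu
miR-335-3p: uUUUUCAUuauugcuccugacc
miR-675-5p: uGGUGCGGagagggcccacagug
miR-675-3p: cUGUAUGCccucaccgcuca
miR-296-5p: aGGGCCCCcccucaauccugu
miR-296-3p: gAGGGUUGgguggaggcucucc

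Among 2367 listed names with a sequence, the seed of miR-675-5p was also that of miR-4466, which had too few counts to test. The other 5 seeds were found in no further name. The miR-335 arms hold 30.4% (5p) and 36.4% (3p) G and C, against 60 to 69.6% in the arms of miR-675 and miR-296. Both hairpins below are shown because the text compares their arms, which stand in capitals.
MIR335: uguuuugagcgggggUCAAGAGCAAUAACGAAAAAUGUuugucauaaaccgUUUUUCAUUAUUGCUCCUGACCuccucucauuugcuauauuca
MIR675: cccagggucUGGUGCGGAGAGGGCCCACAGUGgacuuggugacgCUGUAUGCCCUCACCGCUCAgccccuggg

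In GENCODE release 29 on GRCh38, the MIR335 hairpin (chr7:130496111-130496204, plus strand) lies in an intron of MEST and in an exon of the antisense gene AC007938.2. MIR675 (chr11:1996759-1996831, minus strand) lies in an exon of H19, so that its precursor is cut from the H19 transcript itself. MIR483 (chr11:2134134-2134209, minus strand) lies in an intron of IGF2 and of INS-IGF2. MIR296 (chr20:58817615-58817694, minus strand) lies in an exon of the long non-coding RNA AL132655.2, 1225 bases beyond the end of GNAS-AS1, the antisense gene of the GNAS locus.

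Total counts ran from 10288415 to 14296902 per library. Of the listed miRNAs 783 passed the filter on low counts, and 77 of these were higher and 104 lower with ERβ at an adjusted p under 0.05. That is 23.1% in either direction, 9.83% higher and 13.3% lower. Knockout library S2 stood apart: its chi-square per degree of freedom against the other knockout libraries was 307 and 331, against 12.2 to 21.2 for every other pair within a group. Results are therefore also given without it. All 8 epithelial markers were abundant enough to test, led by miR-141-3p, and 1 was higher and 4 lower with ERβ. Of 15 markers of stromal, endothelial, blood, liver, muscle and neural cells, 7 were abundant enough to test, 0 were higher and 3 lower. The summed level of these 15 was 16587 to 17012 CPM (counts scaled to a common effective library size) in knockout libraries and 13122 to 14289 CPM with ERβ, nearly all of it from miR-126-3p. The neural marker miR-124-3p was near 0 in both groups (0.0275 CPM in knockout, no count with ERβ). Their part in the results below was not tested.

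The 4 loci were expressed at very different levels. miR-335 supplied 99.6 to 99.8% of the reads of the 8 members in every library, and the 8 together made up 0.193 to 0.196% of all counts in knockout libraries and 0.246 to 0.253% with ERβ. In CPM the 8 summed to 1946 to 2108 in knockout libraries and 2288 to 2427 with ERβ. That difference is smaller than in the shares, which are not scaled. In knockout cells the mean level, in CPM, fell in the order miR-335-5p (1741), miR-335-3p (302), miR-675-3p (2.97), miR-675-5p (1.58), miR-296-5p (1.43), miR-296-3p (0.801), miR-483-3p (0.439) and miR-483-5p (0.304). The ranges over libraries overlapped between miR-675-5p and miR-296-5p and between neighbours among the last 3. With ERβ the first 4 places were the same, the means of miR-483-3p, miR-296-3p, miR-296-5p and miR-483-5p followed, and from miR-675-5p down every neighbour overlapped the next. No scaling by length was applied.

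**Figure D1:**
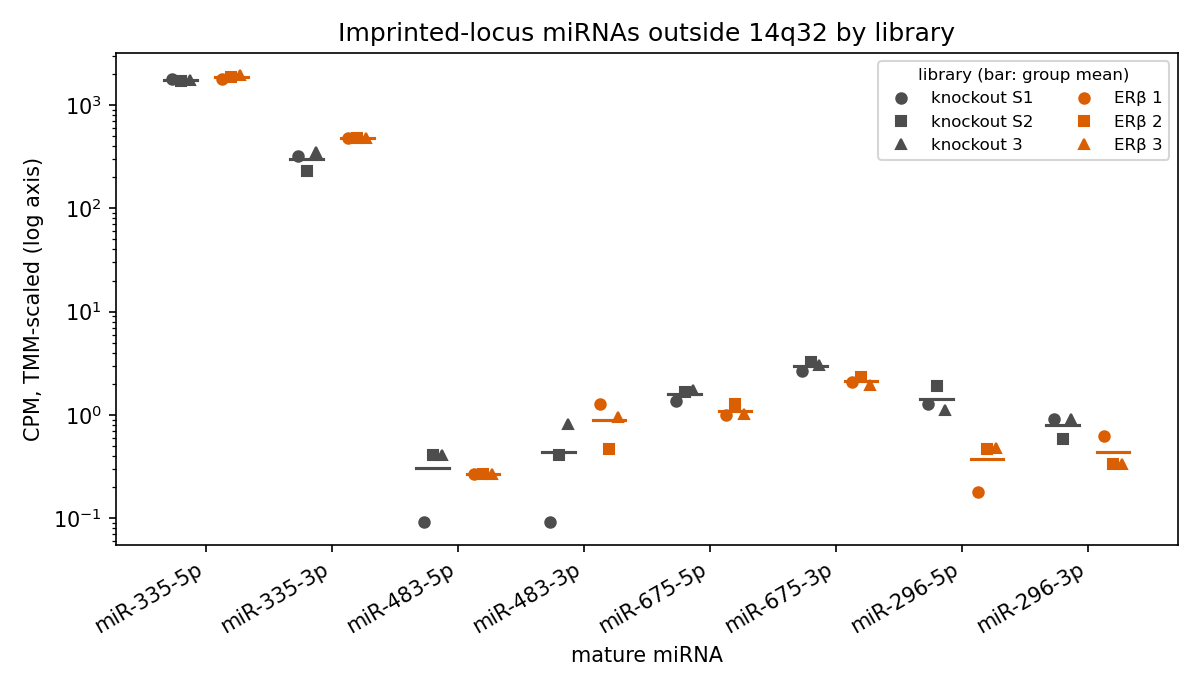
Level of each mature miRNA in CPM (log axis) in 3 knockout libraries (grey) and 3 with ERβ (orange); points are libraries and bars are group means. The miR-335 arms lie between 230.1 and 1939 CPM, the other members between 0.0909 and 3.22 CPM.

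Of the 8 members 5 passed the filter; 1 of them was higher with ERβ, miR-335-3p, and 1 was lower, miR-296-5p. The 3 that missed it were both arms of miR-483 and miR-296-3p. miR-296-5p passed the filter through its 3 knockout libraries alone, none with ERβ reaching the limit of 0.830 CPM, so a difference was required for it to be tested at all. The groups did not overlap in any of the 5, as in 39.8% of all tested miRNAs. For miR-296-5p this followed from how it passed the filter, so it adds nothing to that count. Without knockout library S2, 7 members were tested and the calls were again 1 higher and 1 lower, with 34.9% of all tested miRNAs passing. The groups then did not overlap in 6 members, against 57.2% of all tested miRNAs. The 6 include miR-296-5p, for which this again adds nothing.

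miR-335 is known in breast cancer as a suppressor of metastasis whose 5p arm targets SOX4 and tenascin C. The 3p arm rose with ERβ while the more abundant 5p arm did not pass the test. miR-335-3p stood at 321, 230.1 and 353 CPM in knockout libraries S1, S2 and 3 and at 479.7, 476 and 483 CPM in ERβ libraries 1, 2 and 3. Every ERβ library was above every knockout library, the 3 with ERβ lay close together, and S2 was the lowest. The group means were 302 ± 64.0 and 479 ± 3.53 CPM (SD, n = 3 each), and the log2 fold change of ERβ over knockout was 0.67 ± 0.14 (standard error; 95% interval 0.35 to 0.99; edgeR quasi-likelihood test, adjusted p = 0.00786). Without S2 it was 0.51 ± 0.05 (adjusted p = 6.44e-08). It passed in each of the 15 alternatives run, with adjusted p from 1.49e-09 to 0.0473.

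miR-335-5p, ranked 71 in level among all listed miRNAs, stood at 1781, 1708 and 1735 CPM in knockout libraries and at 1803, 1874 and 1939 CPM with ERβ. The groups did not overlap, but the lowest ERβ library was close to the highest knockout library. The log2 fold change was 0.10 ± 0.07 (95% interval -0.04 to 0.25, edgeR quasi-likelihood test, adjusted p = 0.306). Without S2 it was 0.09 ± 0.04 by the same test (adjusted p = 0.119). Scaling by upper quartiles or by library totals moved the median log2 fold change of all tested miRNAs up by 0.112 and 0.153, and the 5p arm then passed (0.22, adjusted p = 0.0423, and 0.26, adjusted p = 0.0124). Relative to that median it was 0.117 with TMM scaling, 0.117 by upper quartiles and 0.120 by library totals. Both arms together came to 2102, 1938 and 2088 CPM in knockout libraries and 2283, 2350 and 2422 CPM with ERβ, again without overlap.

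**Figure D2:**
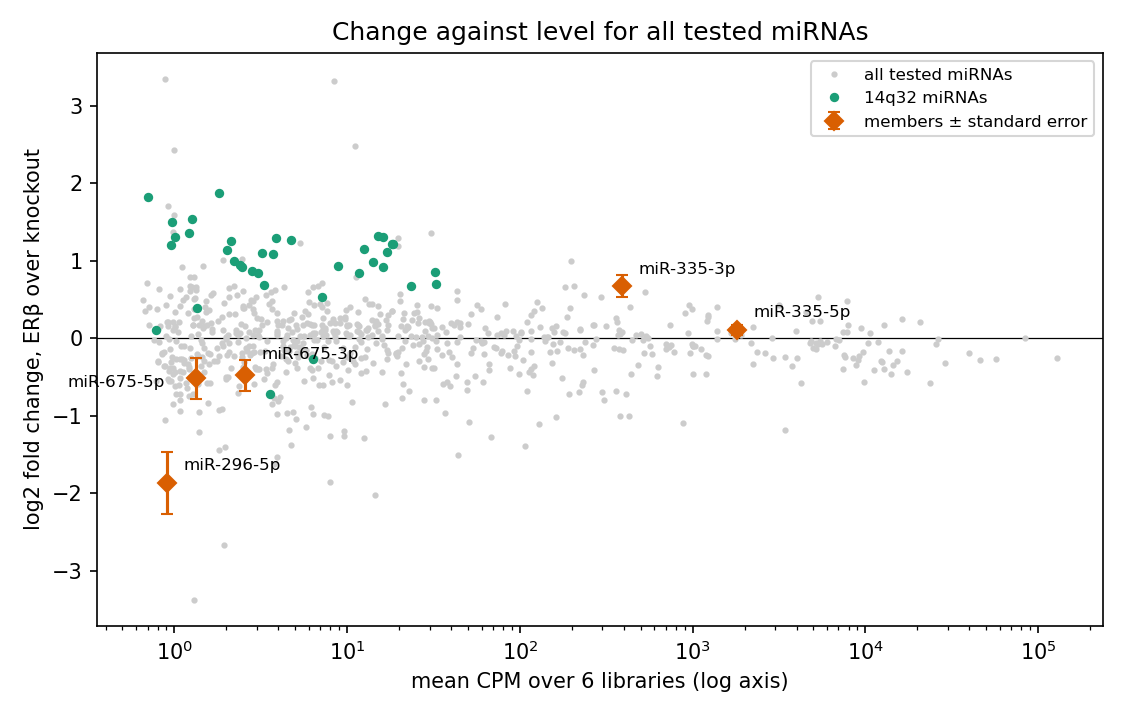
Log2 fold change of ERβ over knockout against mean CPM (log axis) for the 783 tested miRNAs (grey), the 14q32 miRNAs (green) and the 5 tested members (orange, with standard errors). miR-335-3p sits at 0.67 and miR-335-5p at 0.10, the miR-675 arms and miR-296-5p below 0, and 35 of the 37 green points above 0.

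The share of miR-335 reads from the 3p arm does not depend on library scaling. It was 15.3% (Wilson 95% interval 14.8 to 15.8%), 11.9% (11.5 to 12.3%) and 16.9% (16.4 to 17.4%) in knockout libraries S1, S2 and 3. In ERβ libraries 1, 2 and 3 it was 21.0% (20.5 to 21.5%), 20.2% (19.8 to 20.7%) and 19.9% (19.5 to 20.4%); such intervals cover counting error only. The 3p share was thus higher in every ERβ library than in any knockout library, and the knockout libraries differed from each other by more than counting error. The log2 ratio of 5p to 3p reads fell from 2.55 ± 0.31 to 1.96 ± 0.05 (SD, n = 3 per group; two-sided exact permutation p = 0.1, the smallest that 3 against 3 can give). Without S2 the difference was -0.42 instead of -0.59. Fitted over the 209 hairpins with both arms tested, the ratio of miR-335 did not pass (limma, -0.59 ± 0.18, unadjusted p = 0.0157, adjusted p = 0.364; 0.246 to 0.721 with a library left out). In that fit 0 hairpins passed (0%), 18 had an unadjusted p under 0.05, and 35 (16.7%) had groups without overlap. Although the 3p arm passed and the 5p arm did not, a difference between the arms is therefore not shown across hairpins.

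miR-675, cut from an exon of H19 and known to restrain growth through targets such as IGF1R, was rare and did not pass in either arm. miR-675-3p had 29, 39 and 30 counts in knockout libraries S1, S2 and 3 (2.64, 3.22 and 3.05 CPM) and 23, 35 and 29 with ERβ (2.07, 2.34 and 1.96 CPM). Its groups did not overlap in CPM, with a log2 fold change of -0.48 ± 0.20 (95% interval -0.94 to -0.02; adjusted p = 0.125). miR-675-5p had 15, 20 and 17 counts (1.36, 1.65 and 1.73 CPM) against 11, 19 and 15 (0.991, 1.27 and 1.01 CPM). Its groups did not overlap either, with a log2 fold change of -0.52 ± 0.26 (95% interval -1.11 to 0.07, edgeR quasi-likelihood test, adjusted p = 0.198). Without S2 the same test gave -0.41 ± 0.26 for miR-675-3p (adjusted p = 0.235) and -0.48 ± 0.35 for miR-675-5p (adjusted p = 0.316).

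Unlike miR-335, miR-675 gave more 3p than 5p reads in every library. The 3p share was 63.8 to 66.1% in knockout libraries and 64.8 to 67.7% with ERβ. Over single libraries the Wilson 95% intervals ran from as low as 49.5% to as high as 80.9%, since 34 to 59 reads stood behind each share. The log2 ratio of 5p to 3p reads differed by -0.05 between the groups (two-sided exact permutation p = 0.6; limma ± 0.12, adjusted p = 0.974).

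**Figure D3:**
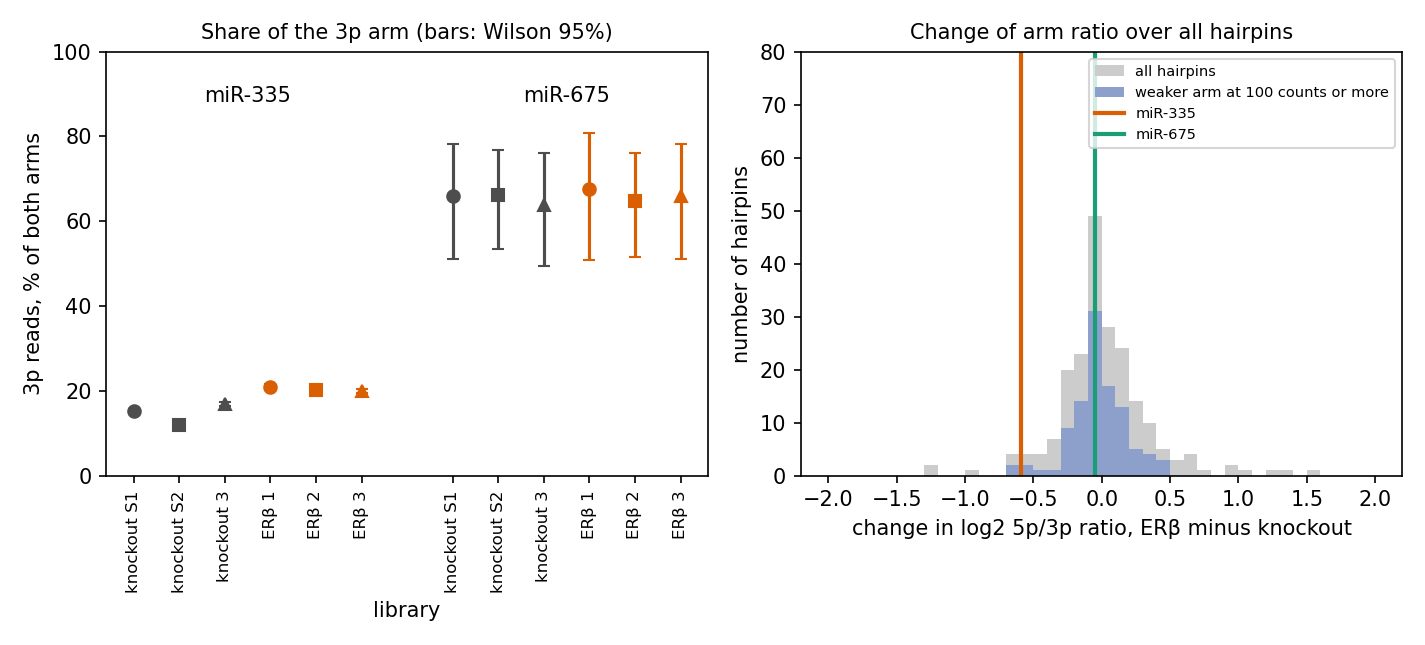
Left, share of 3p reads in percent of both arms of miR-335 and miR-675 per library, with Wilson 95% intervals; right, change of the log2 5p to 3p ratio (ERβ minus knockout) over 209 hairpins, with those whose weaker arm averages 100 counts or more in blue. The miR-335 share is 11.9 to 16.9% in knockout libraries and 19.9 to 21.0% with ERβ, and its ratio changed by -0.59 against -0.05 for miR-675.

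miR-296 of the GNAS locus, known from work on angiogenesis, was lower with ERβ in its 5p arm, on few reads. miR-296-5p had 14, 23 and 11 counts in knockout libraries S1, S2 and 3 (1.27, 1.90 and 1.12 CPM) and 2, 7 and 7 counts with ERβ (0.180, 0.468 and 0.473 CPM). Every knockout library was above every ERβ library; S2 was the highest and ERβ library 1 the lowest. The log2 fold change was -1.87 ± 0.40 (95% interval -2.77 to -0.96, edgeR quasi-likelihood test, adjusted p = 0.00891), and -1.59 ± 0.47 without S2 (adjusted p = 0.0112). With a replicate block from the column numbers the same test did not pass (-2.01, adjusted p = 0.0634). Those numbers put S1, S2 and ERβ library 1 in the same block. ERβ library 2 stood alone in its block and so added nothing to the group difference there. As miR-296-5p reached the filter limit only in knockout libraries, these values describe a difference that entry into the test already required. With 48 counts in one group and 16 in the other, the ratio of ERβ to knockout was 0.269, with an exact 95% interval of 0.142 to 0.482 that covers counting error only.

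miR-296-3p missed the filter with 10, 7 and 9 counts in knockout libraries (0.909, 0.579 and 0.916 CPM) and 7, 5 and 5 with ERβ (0.631, 0.334 and 0.338 CPM). Knockout library S2 lay below ERβ library 1, so the groups overlapped. Its ratio of ERβ to knockout was 0.527 (exact 95% interval 0.268 to 1.01), and without a filter its log2 fold change was -0.85 ± 0.53 (adjusted p = 0.463). Without S2 it passed the filter, with no overlap, at -1.11 ± 0.49, and did not pass the test (adjusted p = 0.0863). The neighbouring hairpin of the same locus, MIR298, gave 2 counts of miR-298 in knockout library 3 and 0 in the other libraries, where 0 counts allow up to 0.201 to 0.273 CPM.

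miR-483, an intronic miRNA of IGF2 known to be abundant in Wilms tumour, was close to the limit of detection. miR-483-3p had 1, 5 and 8 counts in knockout libraries S1, S2 and 3 (0.0909, 0.413 and 0.814 CPM) and 14, 7 and 14 with ERβ (1.26, 0.468 and 0.947 CPM). ERβ library 2 lay below knockout library 3, so the groups overlapped. The ratio of the summed levels was 2.02 (exact 95% interval 1.06 to 4.06, counting error only), while without a filter, where the spread between libraries enters, the log2 fold change was 1.05 ± 0.51 (adjusted p = 0.25). Without S2 miR-483-3p passed the filter and did not pass the edgeR quasi-likelihood test (0.98 ± 0.63, adjusted p = 0.243). miR-483-5p had 1, 5 and 4 counts against 3, 4 and 4, a ratio of 0.887 (0.342 to 2.33). No difference in either arm was detectable at this depth and spread.

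The 14q32 list of the DLK1-DIO3 region, expressed from the maternal chromosome, gives the comparison with another imprinted locus. Of its 95 listed names 37 were tested, 28 were higher and 0 lower, against 9.83% higher and 13.3% lower over all 783 tested miRNAs. The median log2 fold change was 1.08 against -0.01 over all tested miRNAs. Without a filter, where every name with a count enters, also one with counts in 1 group alone, 35 of 76 were higher, against 102 of all 1864. How many of the 37 passed the filter through 1 group alone was not counted. The number higher was 30 of 39 without knockout library S2. Without ERβ library 2 it was 26 of 38, with 1 lower. Its 3 most abundant members were miR-376a-3p (0.70 ± 0.13), miR-654-3p (0.86 ± 0.10) and miR-409-3p (0.67 ± 0.13), all of which passed. The 2 tested names below 0 were both arms of miR-1247, named after their values were seen; neither passed. The summed level of the list was 201 to 226 CPM in knockout libraries and 387 to 416 CPM with ERβ, so that miR-335-5p alone exceeded the whole list in every library.

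The members were also set against this sum, which itself rose without overlap, so that any member that rose less gives a negative difference. For a member that changed little, groups apart and the smallest p follow from the rise of the sum alone. Per 100 reads of 14q32 miRNAs there were 847, 850.3 and 769 reads of miR-335-5p in knockout libraries and 448, 485 and 466 with ERβ, a log2 difference of -0.82 (two-sided exact permutation p = 0.1, the smallest possible). The difference was -1.46 for miR-675-5p, -1.40 for miR-675-3p and -2.95 for miR-296-5p, each without overlap and with the same exact permutation p; the last is the member tested through its knockout libraries alone. For miR-335-3p the values were 153, 115 and 157 against 119, 123 and 116 per 100 reads; the groups overlapped, at a log2 difference of -0.23 (exact permutation p = 0.4). The overlap rested on knockout library S2: without it the groups were apart, at a log2 difference of -0.37 (exact permutation p = 0.1, the smallest possible).

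**Figure D4:**
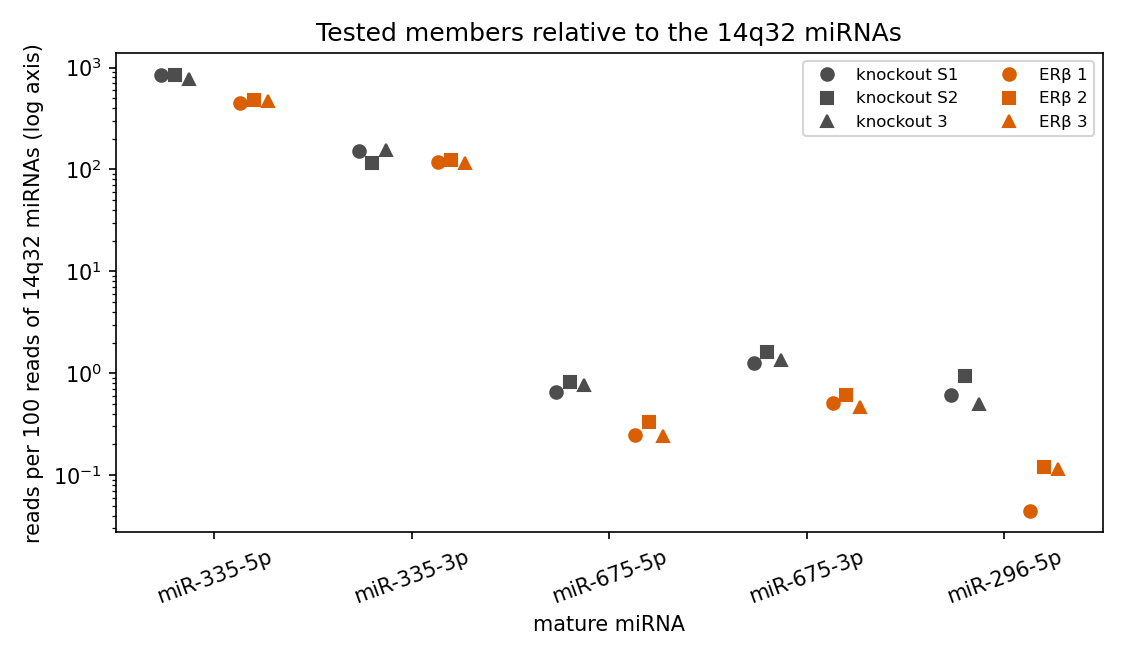
Reads of each tested member per 100 reads of the 14q32 list (log axis) in knockout (grey) and ERβ (orange) libraries. Values with ERβ lie below those of knockout for miR-335-5p (448 to 485 against 769 to 850.3), miR-675 and miR-296-5p, and overlap for miR-335-3p through knockout library S2 (116 to 123 against 115, 153 and 157).

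Beyond these loci, most names of the C19MC cluster had no count, while miR-184 was more abundant than every member other than miR-335. Of 66 names of C19MC, a chromosome 19 cluster expressed from the paternal chromosome in placenta, 23 had a count and 1 was tested, miR-516a-5p, at 0.855 ± 0.695 CPM in knockout and 0.973 ± 0.0959 CPM with ERβ (log2 fold change 0.16 ± 0.53, adjusted p = 0.857). miR-184, reported as imprinted in mouse, fell from 26.1 ± 3.45 to 15.3 ± 0.409 CPM (-0.77 ± 0.13, adjusted p = 0.00226).

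The miRNAs whose level followed each tested member most closely over the 6 libraries were found by the correlation of log2 CPM, a description over 6 points that share library scaling. Group means were not removed, so a difference between the groups in both miRNAs can by itself give a high correlation. For miR-335-3p they were miR-548am-5p (Pearson r = 0.994) and miR-17-5p (0.993), with 73 of 781 miRNAs above 0.9. For miR-335-5p they were miR-3942-5p (0.978) and miR-122-5p (0.962), with 23 above 0.9. miR-675-5p was followed by miR-211-5p (0.989) and miR-3677-5p (0.982), with 16 above 0.9. miR-675-3p was followed by miR-3157-5p (0.991) and miR-361-5p (0.986), with 47 above 0.9. For miR-296-5p they were miR-2114-5p (0.982) and miR-95-3p (0.976), with 37 above 0.9.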

How the data were processed

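Small RNA libraries of 6 KPL4 samples were made with a QIAseq miRNA kit, per the labels' protocols. The submitters' processing notes name FastQC, Trim Galore and GRCh38; no source used here names the aligner, the counter, the annotation release or the use of molecular identifiers. The authors deposited a table of expected counts by mature miRNA. Between 6.33 and 7.27% of the values in a library have a fraction, but none of the 8 members does. Columns were assigned by name. Of the knockout columns 2 carry the number 1 and go by their index, S1 and S2.

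Counts were rounded and fitted over the whole table in R 4.3.3 with edgeR 4.0.16 (filterByExpr, minimum count 10; TMM; robust quasi-likelihood test; Benjamini-Hochberg over 783 miRNAs, threshold 0.05). CPM are relative to totals scaled by TMM, and standard errors were taken from the fold change and its F statistic. Arm ratios used a pseudocount of 0.5; their fit over hairpins with limma 3.58.1 was added after the data were seen, as were counts without single libraries. The test was tried on simulated counts. Alternatives were 4 scalings, 2 filters, DESeq2 1.42.0, limma-voom, a replicate block and each library left out. All 8 members were named, with the 2 closest miRNAs per tested member, same-seed miRNAs and the 3 most abundant tested members of each imprinted list. Members and lists were chosen with earlier results of these data known. Figures were drawn with matplotlib 3.10.9.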

Additional observations from a re-analysis of the deposited data

How the results depend on the processing

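The calls of 2 members stayed 2 with DESeq2 size factors, TMM without the 10 most abundant miRNAs, no filter, the DESeq2 test, limma-voom and each library left out (2 to 2); 3 passed with upper-quartile factors or library totals, where miR-335-5p joined. With the filter of 10 CPM in 3 libraries 1 passed, since miR-296-5p was not tested there. With a replicate block from the numbers in the column names 1 passed, miR-335-3p (adjusted p = 0.0473), while miR-296-5p did not (-2.01, adjusted p = 0.0634). Same-numbered libraries had correlations of -0.0957, 0.134 and 0.123 of their deviations from the group means. Pairs with different numbers had correlations from -0.103 to 0.0833. With 3 libraries per group these values cannot tell whether same-numbered libraries were paired. The block left 88 miRNAs called, 38 higher and 50 lower. It was uneven, with knockout libraries S1 and S2 and ERβ library 1 in the same block and ERβ library 2 alone. ERβ library 2 so added nothing to the group difference, and the fewer calls cannot be read as an effect of pairing. Of all tested miRNAs 181 passed, 111 to 279 with a library left out: 279 without knockout library S2, and 111, 112 and 111 without ERβ library 1, 2 or 3. Those higher numbered 49 to 122 and those lower 58 to 157. Upper-quartile factors gave 123 higher, and library totals 146 higher and 61 lower, so that the share of calls that were higher went from 42.5% to 63.7% and 70.5%. The filter of 10 CPM in 3 libraries left 66 lower and 13 of 13 tested 14q32 miRNAs higher. No fold change or ratio of a member changed sign in any alternative run, while the balance of calls over all tested miRNAs turned under scaling by totals or upper quartiles. With a library left out, the arm ratio of miR-335 differed by -0.72 to -0.42 and that of miR-675 by -0.09 to -0.004. For the ratios to 14q32 the ranges were -0.87 to -0.79 (miR-335-5p), -0.37 to -0.15 (miR-335-3p), -1.60 to -1.38 (miR-675-5p), -1.50 to -1.30 (miR-675-3p) and -3.21 to -2.49 (miR-296-5p). Depth limits miR-483, miR-296 and miR-675, whose arms had 1 to 39 counts per library.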

Other observations

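Among the 191 tested miRNAs that averaged at least 100 CPM, 64 passed (33.5%), 18 higher and 46 lower. In this set 1 miRNA rose more than miR-335-3p, namely miR-548a-3p, named after its values were seen. That rank covers rises only, and there were falls of larger size, such as that of miR-10a-5p (log2 fold change -1.18). Of the 102 hairpins whose weaker arm averaged at least 100 counts, miR-335 had the 3rd largest change of the 5p to 3p ratio in either direction. Among all 209 hairpins with both arms tested its change ranked 20th. The median size on the log2 scale was 0.12 over the 102 hairpins and 0.17 over all 209, against 0.59 for miR-335. Among the 102, the larger changes were those of miR-195 (-0.68) and miR-491 (-0.65). Below miR-335 came miR-30d (-0.52) and miR-200c (0.47), all named after their values were seen. In these 5 hairpins the groups did not overlap, as in 20 of the 102, and none passed the fit over all hairpins. In all 5 the spread between knockout libraries (SD 0.07 to 0.42) was larger than that between ERβ libraries (0.05 to 0.21).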
